A study of Mus musculus with 2 samples.

Results

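The 7 genes described here act in corticosteroid signalling. Nr3c1 and Nr3c2 encode the glucocorticoid and the mineralocorticoid receptor, Hsd11b1 and Hsd11b2 the 11-beta hydroxysteroid dehydrogenases, Fkbp4 a co-chaperone of steroid receptors, and Ncoa1 and Ncoa2 nuclear receptor coactivators. They were picked by symbol for these roles, with earlier results of these data known, and each symbol was listed once among the 32883 features of the tables. Lungs of wild-type animals, labelled as mouse, had been minced and digested with enzymes, and single cells were profiled in droplets (10x Genomics), which give a count of unique molecular identifiers (UMIs) per gene and cell. One library came from a sham operation and the other was taken 6 h after hepatic ischemia-reperfusion, abbreviated HIR: blood flow to the liver is cut off and then let back in. The labels give no strain, age or sex and do not say whether lungs were pooled. They also give no time after the operation for the sham library. The feature identifiers are those of the rat (prefix ENSRNOG), although the labels name mouse and the build mm10, so symbols were read as the tables list them.

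In rodents the active glucocorticoid is corticosterone. The enzyme made from Hsd11b1 regenerates it inside cells from its inert 11-keto form, whereas the enzyme made from Hsd11b2 inactivates it and so keeps it away from the mineralocorticoid receptor, which binds it tightly. The glucocorticoid receptor waits in the cytosol on HSP90 chaperones, moves to the nucleus when it binds hormone and there recruits coactivators; in the lung it is known for fetal maturation and for restraining inflammation. The question was which lung cells hold the RNA to sense or to activate the hormone, and how this differed between the libraries.

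There was 1 library per group, so no difference could be tested and no p-value is given. Each value is the sum of UMIs over the cells of a class in a library, divided by all UMIs of those cells, as CPM (counts per 1000000 UMIs). Intervals are exact 95% Poisson or binomial intervals, ratios carry exact 95% counting intervals, and all of them cover counting error within these 2 libraries only. A ratio was taken where both libraries held at least 50 cells of the class and at least 20 UMIs of the gene over both, and 1.5-fold was used to call a value higher or lower. The sham library held 59566745 UMIs in 10719 barcodes and the HIR library 50801778 in 9499, of which 8574 and 7925 cells were kept, with a median of 3378.5 and 3105 UMIs. The libraries shared 24 barcodes, and leaving them out turned no ratio of a member. The cells fell into 29 clusters and 25 classes, and 20 classes were compared. Clusters were built without the 7 genes, and a name ending in -like rests on listed marker genes. A cluster that met no name is called by leading genes, as for Wnt11 and Lum stromal cells, Gja5 and Gja4 endothelial cells, and cluster 16, led by MHC class II and mast cell protease genes.

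Nr3c1, the glucocorticoid receptor, was detected in all 20 classes, with 3648 UMIs over the sham library (78.4 CPM) and 2769 over the HIR library (67.1 CPM). Both fibroblast-like classes and the Wnt11 and Lum stromal cells were the 3 highest in sham, and aerocyte capillary endothelium-like cells were level with them in HIR. In the adventitial fibroblast-like class Nr3c1 stood at 147 CPM (132 to 164, 348 UMIs) in sham and 119 CPM (102 to 139, 163 UMIs) in HIR. In the alveolar fibroblast-like class it stood at 142 CPM (124 to 161) in sham and 116 CPM (89.7 to 149) in HIR. Wnt11 and Lum stromal cells gave 125 CPM (113 to 138) and 103 CPM (91.8 to 115). These intervals overlap between neighbours in the order, so the rank among the stromal classes is not settled. In sham 4 classes had an interval that reached that of the highest class. They were the alveolar fibroblast-like, Wnt11 and Lum stromal, plasmacytoid dendritic-like, and Gja5 and Gja4 endothelial classes. Smooth muscle or myofibroblast-like cells followed with 105 and 100.2 CPM.

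Endothelial classes overlapped with these values in both libraries. Nr3c1 was at 112 and 111 CPM in venous or large vessel endothelium-like cells, at 105 and 119.9 CPM in aerocyte capillary endothelium-like cells, and at 112 and 77.6 CPM in Gja5 and Gja4 endothelial cells. General capillary endothelium-like cells gave 90.5 and 90.3 CPM. The epithelium was split. Alveolar type 1 epithelium-like cells, the thin gas exchange cells, held 93.7 CPM in sham and 102 in HIR, whereas alveolar type 2 epithelium-like cells, which make surfactant, held 33.5 (27.9 to 40.0) and 38.1 CPM (31.3 to 46.0).

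Among leukocytes Nr3c1 ranged widely. Plasmacytoid dendritic-like cells had 111 and 79.8 CPM, interstitial macrophage-like cells 84.1 and 56.7, nonclassical monocyte-like cells 81.7 and 91.8, and natural killer-like cells 68.6 and 75.6. Alveolar macrophage-like cells had 64.0 and 57.2 CPM, classical monocyte-like cells 61.3 and 39.6, B-like cells 49.5 and 60.2, and cluster 16 had 41.4 and 30.1. The lowest values were in neutrophil-like cells, at 35.5 and 18.4 CPM, and in T-like cells, at 33.2 (25.8 to 42.1) and 27.6 CPM (19.5 to 37.8). From the lowest to the highest class the span was 4.44-fold in sham and 6.51-fold in HIR. Summed by compartment, the sham values were 127 CPM in stromal, 100.1 in endothelial, 68.3 in myeloid, 44.9 in lymphoid and 42.1 CPM in epithelial cells.

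**Figure D1:**
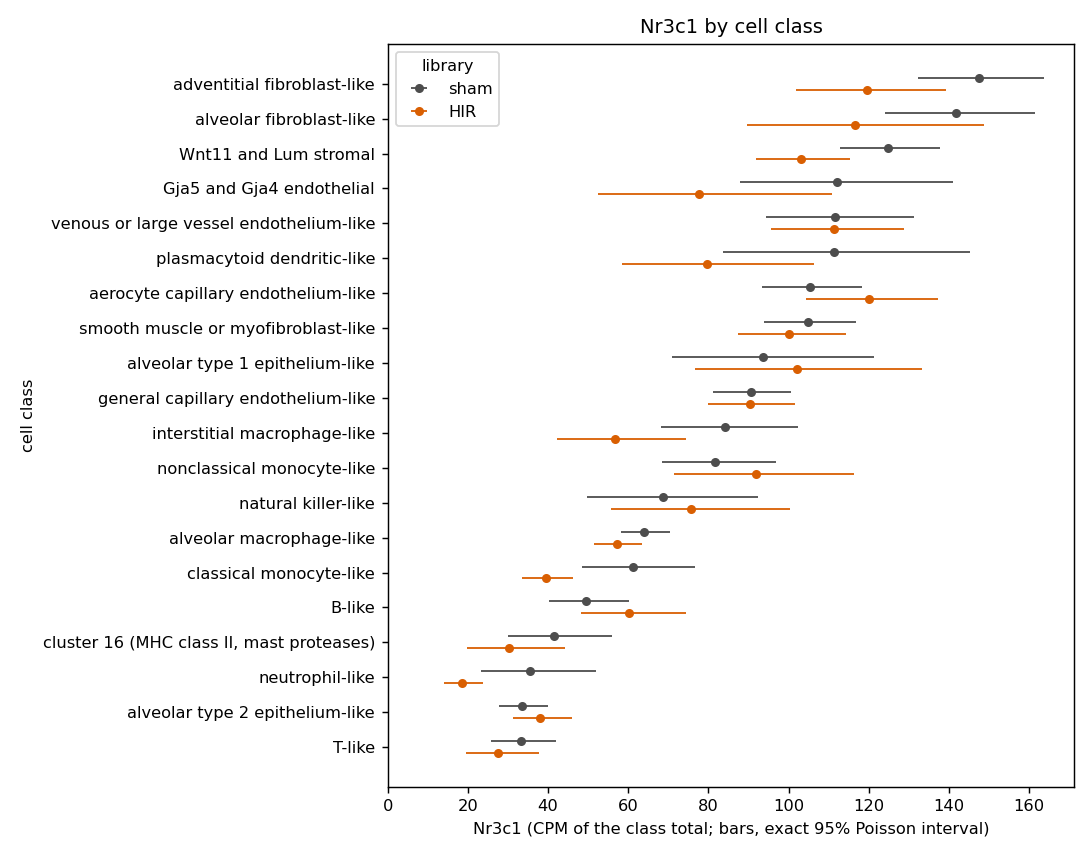
Nr3c1 level by cell class (CPM of the class total, linear axis) in the sham (grey) and HIR (orange) libraries, 1 library each, with exact 95% Poisson intervals as bars. Adventitial fibroblast-like cells are highest in sham (147 CPM) and level with aerocyte capillary endothelium-like cells in HIR (119 and 119.9 CPM), and T-like, type 2 epithelium-like and neutrophil-like cells are at the bottom in sham.

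The share of cells with an Nr3c1 UMI follows depth as well as level. It was 56.5% (51.3 to 61.6) of adventitial fibroblast-like cells in sham and 47.3% (40.8 to 53.8) in HIR, at median depths of 5993 and 5509 UMIs. With each cell thinned to 1000 UMIs these shares were 13.2% and 11.1%. The same share was 14.7% and 13.2% in T-like cells as counted (median depths 5534 and 5494 UMIs), and 3.22% and 2.49% after thinning. Erythroid-like cells, taken as a class that should lack these transcripts, gave 3 of 198 cells (1.52%, 0.314 to 4.36) at a median of 8928 UMIs, and the upper limit of that share lay below the interval of every compared class except neutrophil-like cells, where 6.63% (4.34 to 9.63) and 4.07% (3.05 to 5.30) of cells held a UMI at median depths of 1365 and 2080.5 UMIs.

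Between the libraries the receptor differed little in most classes. The HIR to sham ratio was below 1 in 14 of 20 classes, where 22.3% of the features measured in all 20 classes had a ratio below 1 in at least 14 of them. It passed 1.5-fold in 2 classes, both lower. In classical monocyte-like cells Nr3c1 was at 61.3 CPM in sham (77 UMIs) and 39.6 CPM in HIR (156 UMIs), a ratio of 0.646 (0.488 to 0.860), where 18.4% of all features measured in that class were lower by as much. In neutrophil-like cells it was at 35.5 CPM (26 UMIs) against 18.4 CPM (59 UMIs), a ratio of 0.519 (0.322 to 0.858). There 34.6% of features were lower by at least 1.5-fold, and the median log2 ratio over all features was -0.27. Different clusters held most neutrophil-like cells of each library, cluster 4 with 89.1% of those in sham and cluster 25 with 63.3% of those in HIR. Within cluster 4 Nr3c1 was at 31.9 CPM in sham (16 UMIs) and 22.6 CPM in HIR (17 UMIs). Within cluster 25 it was at 43.4 CPM (10 UMIs) and 17.2 CPM (42 UMIs). The part of the cluster mix in the difference was not tested. The interval also lay below 1 in interstitial macrophage-like cells (ratio 0.674, 0.471 to 0.955), Wnt11 and Lum stromal cells (0.825, 0.708 to 0.961) and adventitial fibroblast-like cells (0.810, 0.668 to 0.978), none of them past 1.5-fold. With size factors in place of class totals, 1 class in place of 2 was past 1.5-fold.

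The genes whose pattern over the 40 class by library values was most like that of Nr3c1, by Pearson's r of log2 CPM among 6760 genes, were Tmem109 (0.841), Lman1 (0.831), Glg1 (0.829), AABR07026291.1 (0.826) and Cops8 (0.825). The 40 values share 2 libraries and differ in depth, so these coefficients are a description without a test.

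Nr3c2, the mineralocorticoid receptor, was close to undetected. It gave 25 UMIs in 25 of 8574 sham cells and 27 UMIs in 26 of 7925 HIR cells, that is 0.538 and 0.654 CPM. At least 1 UMI was seen in 12 of the 20 classes. The highest class values were 3.19 CPM from 2 UMIs in sham natural killer-like cells and 3.68 CPM (1.84 to 6.58) from 11 UMIs in HIR general capillary endothelium-like cells, which had 3 UMIs in sham. Both alveolar epithelial classes together held 2 sham UMIs and 1 HIR UMI. No class reached the 20 UMIs set for a ratio. For general capillary endothelium-like cells, singled out after the values were seen, the ratio of 11 to 3 UMIs would be 4.68 (1.24 to 26.2). The genes ranked as most like it reached an r of at most 0.646, which in counts this sparse is no finding.

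Hsd11b1, which regenerates corticosterone from its inert form, was concentrated in alveolar fibroblast-like cells. These held 3355 UMIs in sham, or 2061 CPM (1991 to 2131), and 1070 UMIs in HIR, or 1947 CPM (1832 to 2068). The ratio was 0.945 (0.881 to 1.013), short of 1.5-fold. A UMI of the gene was present in 321 of 333 cells (96.4%) in sham and 121 of 125 (96.8%) in HIR (median depths 4907 and 4258 UMIs), and in 80.8% and 78.0% after thinning to 1000 UMIs, against 1.52% of erythroid-like cells. Single cells held up to 32 UMIs in sham and 50 in HIR, and the 10 cells with the most UMIs gave 8.52% and 21.5% of the total of the class.

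The upstream sequence of Hsd11b1 is shown because this gene differed most between classes of all members with over 100 CPM in any class. It covers the 250 bases before the start listed by RefSeq for mouse, at chr1:193242361-193242610 (GRCm38.p6, minus strand), and capitals mark the letters CCAAT. As the feature identifiers are those of the rat, it stands for the labelled species only.
Hsd11b1: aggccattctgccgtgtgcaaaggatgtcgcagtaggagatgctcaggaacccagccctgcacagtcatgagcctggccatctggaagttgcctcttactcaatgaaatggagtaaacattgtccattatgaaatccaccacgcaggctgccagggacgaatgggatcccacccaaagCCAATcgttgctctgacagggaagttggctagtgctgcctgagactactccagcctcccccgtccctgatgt
CCAAT begins at position -72, counted back from the listed start, and occurs on either strand in 33.8% of 32851 such windows. No match to GAANNTTC, to TTGCNNAA (the core of a C/EBP site) or to AGAACA (a glucocorticoid response motif) was found in this window on either strand; these letters stand in 6.69%, 9.56% and 16.1% of all windows. The motifs were chosen with the results known.

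Over the whole library Hsd11b1 stood at 111 CPM in sham (5154 UMIs) and 65.3 CPM in HIR (2697 UMIs). Alveolar fibroblast-like cells supplied 65.1% of its sham UMIs and 39.7% of its HIR UMIs. Their share of all kept cells was 3.88% in sham and 1.58% in HIR. Over all kept cells outside this class the gene was at 40.1 CPM in sham (1799 UMIs) and 39.9 CPM in HIR (1627 UMIs). The library-wide difference therefore went together with the number of alveolar fibroblast-like cells recovered, and with 1 digest per group a difference in the tissue and one in cell recovery cannot be told apart.

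Adventitial fibroblast-like cells, the fibroblasts of vessel and airway sheaths, were the class with the next highest level and had more Hsd11b1 in the HIR library. They gave 524 UMIs and 222 CPM (203 to 242) in sham, and 597 UMIs and 438 CPM (403 to 474) in HIR, so the intervals stand apart. The ratio was 1.97 (1.75 to 2.22), and it lay between 1.94 and 2.11 over 13 alternatives of processing. In this class 13.4% of all measured features were higher by at least 1.5-fold. Cells with an Hsd11b1 UMI made up 57.1% of 375 sham cells and 73.4% of 237 HIR cells, or 20.8% and 31.1% after thinning. Cells with at least 5 UMIs made up 6.67% and 19.4%, and the median cell held 1 UMI in sham and 2 in HIR.

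Markers of alveolar fibroblasts were also present in the adventitial fibroblast-like class, and 93.9% of its sham cells and 88.6% of its HIR cells held at least 2 of them. All 10 of these markers were detected in both libraries. Their sum was 2825 CPM in sham and 2830 CPM in HIR, with 3 markers higher and 7 lower; Inmt stood at 68.2 and 495 CPM and Ces1d at 838 and 456 CPM. The summed adventitial markers were at 11222 CPM in sham and 9741 CPM in HIR. The part of these markers in the Hsd11b1 difference was not tested, and without the cells that hold 2 of them the class falls under 50 cells.

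In Wnt11 and Lum stromal cells the direction was the opposite. Hsd11b1 stood at 112 CPM (100.3 to 124, 353 UMIs) in sham and 58.2 CPM (49.8 to 67.6, 171 UMIs) in HIR, a ratio of 0.521 (0.432 to 0.627), where 8% of features were lower by at least 1.5-fold. The share of cells with a UMI was 21.2% of 1106 cells and 11.2% of 1055 cells, at near equal median depths of 2788 and 2733 UMIs, and 8.77% and 4.29% after thinning. The ratio was 0.293 with a stricter filter on cells and 0.372 with finer clusters. Alveolar fibroblast markers summed to 87.0 CPM in sham and 360 CPM in HIR there, with Inmt at 23.7 and 315 CPM and 2 and 1 of the 10 markers at 0. Without the cells that hold at least 2 of these markers the ratio was 0.491. Smooth muscle or myofibroblast-like cells had little Hsd11b1, with 25 UMIs in sham and 10 in HIR (8.02 and 4.60 CPM; ratio 0.573, 0.246 to 1.24), and the ratio was 0.156 without the cells that hold 2 alveolar fibroblast markers. In that class 5.18% of features were lower by 1.5-fold, and the HIR share of cells with a UMI, 1.15%, was no higher than the erythroid-like background.

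**Figure D2:**
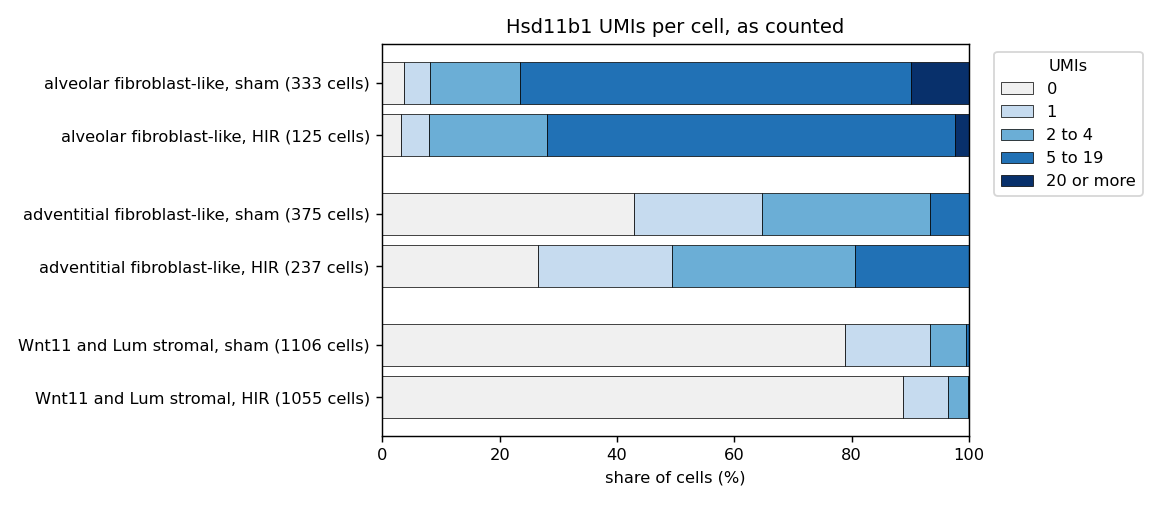
Share of cells (%) by the number of Hsd11b1 UMIs per cell, as counted, in 3 stromal classes of the sham and HIR libraries. Cells with at least 5 UMIs make up 76.6% and 72% of alveolar fibroblast-like cells, and 6.67% in sham against 19.4% in HIR of adventitial fibroblast-like cells.

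Outside the stroma the highest level was in alveolar type 2 epithelium-like cells. Hsd11b1 was at 116 CPM (105 to 128, 426 UMIs) in sham and 118 CPM (106 to 132, 339 UMIs) in HIR, a ratio of 1.02 (0.882 to 1.18). In sham this interval overlaps that of Wnt11 and Lum stromal cells. A UMI was present in 62.2% and 58.3% of type 2 epithelium-like cells, which are deep (medians of 13432 and 13390 UMIs), and in 10.6% and 7.55% after thinning.

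In alveolar macrophage-like and both monocyte-like classes the gene was lower in the HIR library, whereas interstitial macrophage-like cells had 13 and 15 UMIs and a ratio of 1.49 (0.663 to 3.41). Alveolar macrophage-like cells had 136 UMIs (20.4 CPM) in sham and 82 UMIs (12.95 CPM) in HIR, a ratio of 0.634 (0.476 to 0.839), where 1.48% of features were lower by at least 1.5-fold. Classical monocyte-like cells had 36.6 CPM (46 UMIs) and 15.5 CPM (61 UMIs), with a ratio of 0.423 (0.283 to 0.634), where 18.4% of features were lower by at least 1.5-fold. In the nonclassical monocyte-like class there were 27 and 7 UMIs, a ratio of 0.558 (0.205 to 1.31) in a class where 18.1% of features were lower by as much. The estimated free RNA level of Hsd11b1 was 1.41 CPM in sham and 1.11 CPM in HIR in the alveolar macrophage-like class, and 1.60 and 1.17 CPM in the classical monocyte-like class, well under these values.

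Capillary and vein classes had low levels. In aerocyte capillary endothelium-like cells the gene stood at 10.1 CPM (27 UMIs) in sham and 22.5 CPM (40 UMIs) in HIR, a ratio of 2.23 (1.34 to 3.79), where 5.99% of features were higher by at least 1.5-fold. In venous or large vessel endothelium-like cells there were 5 UMIs in sham and 19 in HIR, a ratio of 3.11 (1.12 to 10.6) with 7.95% of features higher, but this ratio became 0.738 when each cell was assigned alone. General capillary endothelium-like cells had 17.0 and 18.7 CPM. In alveolar type 1 epithelium-like cells 31 sham UMIs came from 4 of 100 cells and 14 HIR UMIs from 3 of 98 cells, a ratio of 0.519 (0.255 to 1.005) that was above 1 under 3 of the alternatives, so no direction is given for that class. Lymphocyte, neutrophil-like and plasmacytoid dendritic-like classes and cluster 16 held at most 15 UMIs per library, and the remaining Gja5 and Gja4 endothelial and interstitial macrophage-like classes were at or below 16.7 CPM.

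The genes most like Hsd11b1 over the 40 class by library values were Bdh2 (r = 0.920), Ces1d (0.897), Col13a1 (0.887), Srpx2 (0.883) and Mfap4 (0.879). Ces1d was one of the markers used to name the alveolar fibroblast-like cluster, and Col13a1 and Mfap4 were among its leading genes. The 40 values again share 2 libraries, and the coefficients carry no test.

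Hsd11b2, which inactivates corticosterone, was rare and lay in the same fibroblasts, and almost all of it was in the sham library. Over the whole library there were 139 UMIs in sham and 15 in HIR. Alveolar fibroblast-like cells gave 75 UMIs in sham, or 46.1 CPM (36.2 to 57.7), and 1 UMI in HIR, or 1.82 CPM (0.0461 to 10.1). The ratio was 0.0395 (0.000987 to 0.227), with values from 0.0267 to 0.0491 over 13 alternatives. In this class 13.2% of features were lower by at least 1.5-fold. A UMI was found in 63 of 333 sham cells (18.9%, 14.9 to 23.5) and in 1 of 125 HIR cells (0.8%, 0.0203 to 4.38), and after thinning in 4.40% and 0% of cells. Of the 63 sham cells with Hsd11b2, 60 also held Hsd11b1. No erythroid-like cell of 198 held a UMI, which at a limit of 3 counts allows a share of up to 1.52% (1.85% by the exact interval). By either limit the HIR value is within that background and the sham value is above it.

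Adventitial fibroblast-like cells gave 28 Hsd11b2 UMIs in sham (11.9 CPM, 7.89 to 17.2) and 2 in HIR (1.47 CPM, 0.178 to 5.30), a ratio of 0.124 (0.0143 to 0.490), where 11.9% of features were lower by at least 1.5-fold. The other 18 classes together held 35 UMIs in sham, at most 10 in any of them, and 12 in HIR, at most 6, and 12 of the 18 had none in HIR. Wnt11 and Lum stromal cells had none in either library among 1106 and 1055 cells. Both fibroblast classes thus had less of the inactivating enzyme's RNA in the HIR library, while the RNA of the activating enzyme was near level in one and higher in the other.

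**Figure D3:**
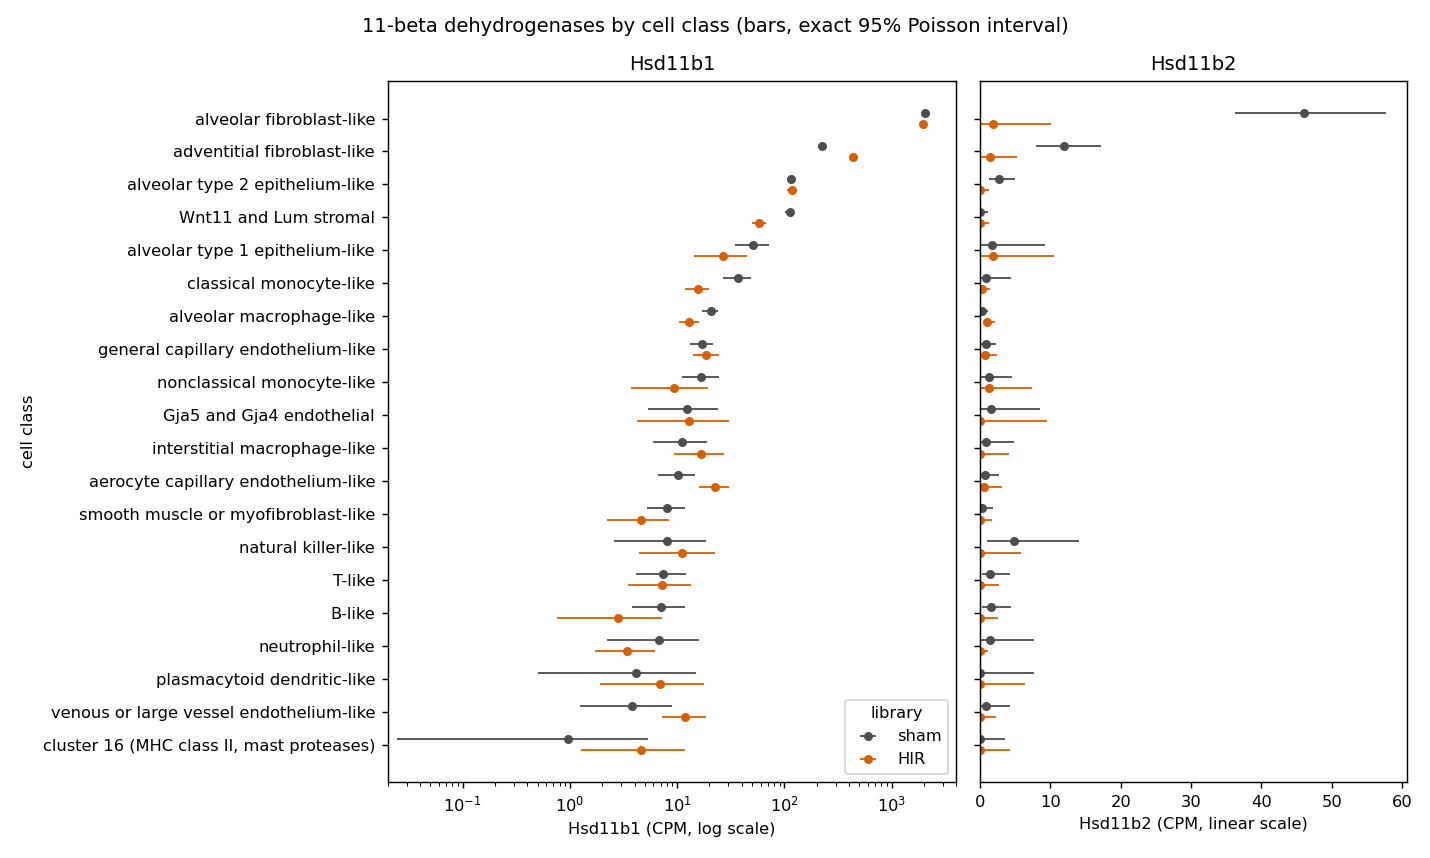
Levels of Hsd11b1 (left, CPM on a log axis) and Hsd11b2 (right, CPM on a linear axis) by cell class in the sham (grey) and HIR (orange) libraries, with exact 95% Poisson intervals as bars. Hsd11b1 reaches 2061 and 1947 CPM in alveolar fibroblast-like cells, where Hsd11b2 stands at 46.1 CPM in sham and 1.82 CPM in HIR.

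Hsd11b1 works as a reductase only when H6pd, hexose-6-phosphate dehydrogenase, supplies it with NADPH in the endoplasmic reticulum. H6pd reached the level set for listed genes (20 CPM in either library) in 2 of the 20 classes, both of them fibroblasts. In alveolar fibroblast-like cells it was at 21.5 CPM (35 UMIs) in sham and 54.6 CPM (30 UMIs) in HIR, a ratio of 2.54 (1.51 to 4.26), where 21.5% of features were higher by at least 1.5-fold. In adventitial fibroblast-like cells it was at 11.4 CPM (27 UMIs) and 33.0 CPM (45 UMIs), a ratio of 2.88 (1.75 to 4.83). Over 13 alternatives the ratio was 2.20 to 2.68 in the first and 2.80 to 3.56 in the second class. In the second class it reached the set level through the HIR library alone, which favours a ratio above 1. With no minimum level, 5 classes held the 20 UMIs for a ratio, and it was above 1 in all 5.

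H6pd belongs to a list of 16 genes for corticosteroid supply and disposal, 13 of which are in the tables. Its median log2 ratio was below 0 in 13 of 20 classes. In adventitial fibroblast-like cells 2 members out of 6 measured were higher by 1.5-fold (13.4% of all features were) and 0 lower, with a median log2 ratio of 0.19 against -0.00 over all features. Over the 9 members with a UMI there, 3 were above 1 and 6 below, and the median was -0.03. The other higher gene was Akr1c14, a 3-alpha hydroxysteroid dehydrogenase that breaks steroids down, at 43.7 CPM in sham and 115 CPM in HIR (ratio 2.64, 2.04 to 3.41). In the other 6 of 7 classes where it was measured, Akr1c14 had a ratio below 1, 2 of them past 1.5-fold. In alveolar fibroblast-like cells 2 of 6 were higher (21.5% of all features were) and 0 lower, with a median of 0.03 against 0.09 over all features. Por, the reductase that passes electrons to cytochrome P450 enzymes, was at 304 and 639 CPM in alveolar type 1 epithelium-like cells (ratio 2.10, 1.75 to 2.53).

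Cells that hold both the activating enzyme and the receptor were counted next. In alveolar fibroblast-like cells 46.2% of sham cells (40.8 to 51.8) and 35.2% of HIR cells (26.9 to 44.2) had a UMI of Hsd11b1 and of Nr3c1. The shares were 33.9% and 32.5% in adventitial fibroblast-like cells, 6.87% and 2.75% in Wnt11 and Lum stromal cells, and 25.9% and 23.1% in alveolar type 2 epithelium-like cells. In smooth muscle or myofibroblast-like cells they were 0.883% and 0.765%. These shares rise with depth, which differs between the classes as given above, and an absent UMI does not show that a cell lacks the transcript.

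Fkbp4 encodes FKBP52, a co-chaperone that sits on the HSP90 complex of steroid receptors and favours hormone binding and transport to the nucleus. It was lower in the HIR library in nearly every class. The library totals were 5646 UMIs (121 CPM) in sham and 3611 UMIs (87.5 CPM) in HIR. The ratio was below 1 in 19 of 20 classes, the exception being alveolar type 2 epithelium-like cells (117 and 125 CPM, ratio 1.06, 0.920 to 1.22). Of the 1763 features measured in all 20 classes, 1.99% had a ratio below 1 in at least 19. The interval lay below 1 in 13 classes, and the ratio passed 1.5-fold in 6.

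The largest difference was in natural killer-like cells, with 126 CPM in sham (79 UMIs) and 50.4 CPM in HIR (32 UMIs), a ratio of 0.3998 (0.257 to 0.610) where 14.1% of features were lower by at least 1.5-fold. Nonclassical monocyte-like cells had 157 CPM (253 UMIs) and 75.9 CPM (57 UMIs), a ratio of 0.484 (0.357 to 0.648). Adventitial fibroblast-like cells had 106 and 63.8 CPM, a ratio of 0.602 (0.466 to 0.771), and alveolar fibroblast-like cells 112 and 69.2 CPM, a ratio of 0.615 (0.422 to 0.877). Smooth muscle or myofibroblast-like cells had 165 and 108 CPM, a ratio of 0.658 (0.562 to 0.769). Neutrophil-like cells had only 10 and 29 UMIs, a ratio of 0.663 (0.314 to 1.53) that became 1.26 when each cell was assigned alone. Features lower by at least 1.5-fold made up 18.1% in nonclassical monocyte-like, 11.9% in adventitial fibroblast-like and 13.2% in alveolar fibroblast-like cells. They made up 5.18% in smooth muscle or myofibroblast-like and 34.6% in neutrophil-like cells.

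Just short of 1.5-fold stood Wnt11 and Lum stromal cells (167 and 117 CPM, ratio 0.702, 0.611 to 0.806) and general capillary endothelium-like cells (141 and 101 CPM, ratio 0.720, 0.623 to 0.830). The class with the highest level was the plasmacytoid dendritic-like one, with 313 CPM (265 to 367) in sham and 232 CPM (195 to 275) in HIR, above every other class in both libraries. Apart from neutrophil-like cells at 13.7 and 9.06 CPM, the remaining compared classes lay between 61.3 and 139 CPM in sham. With median of ratios size factors in place of class totals the ratio was again below 1 in 19 of 20 classes. That scaling moved the median ratio of all genes by 0.39 (log2) in neutrophil-like cells, by -0.16 in alveolar fibroblast-like cells and by 0.11 in classical monocyte-like cells, and by at most 0.1 in each of the others.

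Fkbp5, the related co-chaperone FKBP51, which holds the receptor in a state of low hormone affinity and is itself switched on by the receptor, had the opposite pattern in most classes. It was measured in 15 classes, and in 12 of them it was higher in HIR while Fkbp4 was lower. It passed 1.5-fold higher in 7 classes, where 5.91% to 21.5% of features were higher by as much, and lower in 1. Some classes reached the set level of 20 CPM through the HIR library alone, which favours a ratio above 1. Among them were alveolar fibroblast-like, general capillary endothelium-like and smooth muscle or myofibroblast-like cells (11.7, 8.64 and 12.8 CPM in sham). With no minimum level Fkbp5 had a ratio in 18 classes, 14 of them above 1. In alveolar fibroblast-like cells Fkbp5 stood at 11.7 CPM (19 UMIs) in sham and 54.6 CPM (30 UMIs) in HIR, a ratio of 4.68 (2.55 to 8.80). In adventitial fibroblast-like cells it stood at 21.2 CPM (50 UMIs) and 74.8 CPM (102 UMIs), a ratio of 3.53 (2.49 to 5.05). Neutrophil-like cells were the class in which it was lower by 1.5-fold, at 39.6 and 17.5 CPM (ratio 0.442, 0.277 to 0.717). There 34.6% of features were lower by as much.

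**Figure D4:**
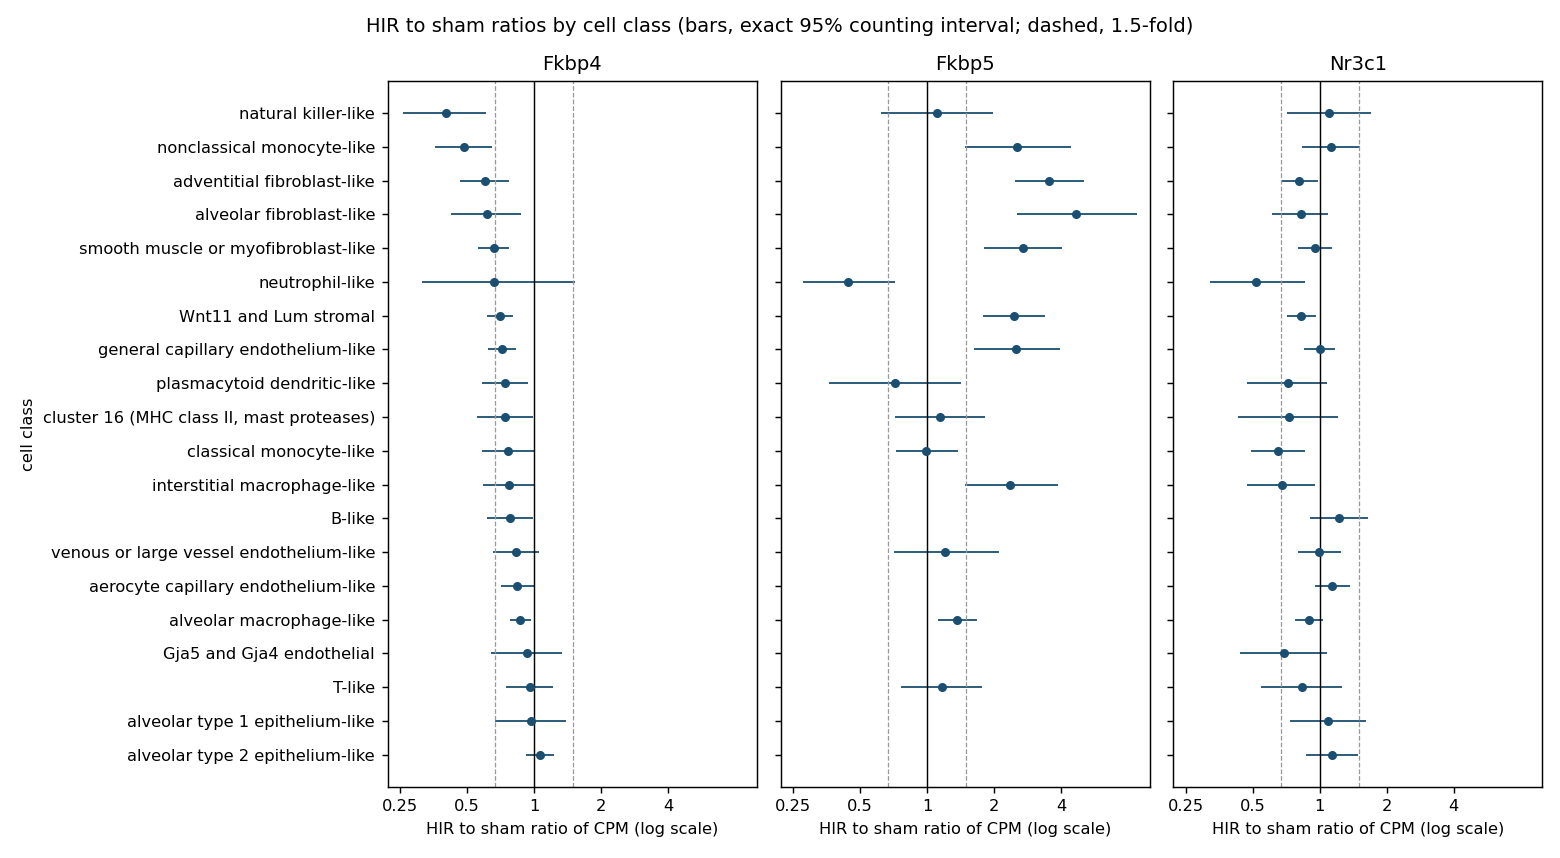
HIR to sham ratios of CPM (log axis) for Fkbp4, Fkbp5 and Nr3c1 by cell class, with exact 95% counting intervals as bars, a solid line at 1 and dashed lines at 1.5-fold. Fkbp4 lies below 1 in 19 of 20 classes, Fkbp5 above 1 in 12 of 15, and Nr3c1 below 1 in 14 of 20. With no minimum level Fkbp5 was above 1 in 14 of 18 classes.

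The other chaperones and co-chaperones of the receptor, a list of 14 genes that includes Fkbp5, had a median log2 ratio below 0 in 18 of 20 classes, between -0.31 and 0.05. Over all features the class medians lay between -0.27 and 0.09. Neutrophil-like cells had the lowest of both (-0.31 and -0.27), and venous or large vessel endothelium-like cells had -0.04 in both. In alveolar fibroblast-like cells 2 of 14 were lower by 1.5-fold and 2 higher, where 13.2% and 21.5% of all features were, so these counts are near or below the background. The median was -0.30 against 0.09 over all features, and 11 of the 14 ratios were below 1. The lower ones were Hspa8, the constitutive HSP70 that loads receptors onto HSP90 (652 and 311 CPM, ratio 0.478, 0.404 to 0.562), and Stip1, the adaptor between HSP70 and HSP90 (ratio 0.602, 0.304 to 1.10). Ppid, cyclophilin 40, was higher with Fkbp5 (ratio 1.84, 1.04 to 3.18). In adventitial fibroblast-like cells 2 of 14 were lower, Hspa8 (0.632) and Ppp5c (0.629), and Fkbp5 was the 1 higher, near or below the 11.9% and 13.4% of all features. The median was -0.29, and 12 of the 14 ratios were below 1. In Wnt11 and Lum stromal cells Hspa8 was lower (0.610) and Fkbp5 higher (2.45), in a class where 8.21% of features were higher by 1.5-fold. In smooth muscle or myofibroblast-like cells 0 of 14 were lower and Fkbp5 was higher (2.69), where 6.07% of features were higher. In alveolar type 1 epithelium-like cells 4 of 12 were lower, Hspa8 (0.407), Dnajb1 (0.590), Dnaja1 (0.646) and Hsp90ab1 (0.659), against 10.3% of all features.

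The upstream sequence of Fkbp4 is shown because Fkbp4 was lower together with part of the chaperone list, several of whose genes are classical targets of heat shock factor. It covers 250 bases at chr6:128438657-128438906 (GRCm38.p6, minus strand), again from RefSeq for mouse, and capitals mark a match to GAANNTTC, the core of a heat shock element.
Fkbp4: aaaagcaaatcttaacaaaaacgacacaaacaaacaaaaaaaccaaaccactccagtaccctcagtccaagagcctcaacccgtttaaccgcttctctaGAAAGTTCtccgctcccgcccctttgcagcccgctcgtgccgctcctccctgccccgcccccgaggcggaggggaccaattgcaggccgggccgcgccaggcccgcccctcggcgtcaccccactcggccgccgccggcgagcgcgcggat
The match begins at position -151. Among the 10 genes of the chaperone list and Fkbp4 that have a window in the table, Dnaja1 is the only other one with this match, and 6.69% of all windows hold it. The match is a description of the letters and not evidence of a binding site. A part of heat shock factor in the lower values was not tested.

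Ncoa1 encodes SRC-1, the founding member of the p160 coactivators that nuclear receptors recruit once hormone is bound. It was detected in all 20 classes, with 1743 UMIs (37.5 CPM) in sham and 1642 UMIs (39.8 CPM) in HIR. Alveolar fibroblast-like cells had the highest level in both libraries, 86.0 CPM (72.3 to 101) and 92.8 CPM (69.1 to 122). Next in sham came Wnt11 and Lum stromal cells (55.7 and 71.8 CPM), adventitial fibroblast-like cells (54.7 and 52.8), plasmacytoid dendritic-like cells (53.6 and 58.9) and type 2 epithelium-like cells (48.2 and 45.4), which overlap in their intervals. All other classes lay between 20.5 and 45.2 CPM in sham.

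Ncoa1 was above its sham value in 12 of 20 classes and below it in 8. It passed 1.5-fold higher in alveolar type 1 epithelium-like cells, at 41.1 CPM (25 UMIs) and 68.0 CPM (36 UMIs), a ratio of 1.66 (0.967 to 2.88) whose interval includes 1, where 16.5% of features were higher by as much. It also did so in neutrophil-like cells, at 20.5 CPM (15 UMIs) and 37.8 CPM (121 UMIs), a ratio of 1.85 (1.08 to 3.40) where 10.8% of features were higher. Nonclassical monocyte-like cells were past 1.5-fold lower, at 45.2 and 29.3 CPM, a ratio of 0.648 (0.383 to 1.06). That interval includes 1, and 18.1% of features were lower by as much in this class. The interval lay above 1 in 4 classes, which include alveolar macrophage-like (22.4 and 31.0 CPM; 1.38, 1.11 to 1.72) and aerocyte capillary endothelium-like cells (34.7 and 50.1 CPM; 1.44, 1.07 to 1.95). In alveolar and adventitial fibroblast-like cells the ratios were 1.08 (0.768 to 1.497) and 0.965 (0.713 to 1.298).

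Ncoa2, which encodes the related coactivator GRIP1 or TIF2, was sparse, with 106 UMIs in sham and 121 in HIR (2.28 and 2.93 CPM). No class passed 9.10 CPM. Ratios could be taken in 3 classes, B-like (18 and 13 UMIs; 1.01, 0.455 to 2.18), T-like (10 and 11 UMIs; 1.63, 0.630 to 4.29) and general capillary endothelium-like (12 and 15 UMIs; 1.60, 0.698 to 3.74). The last 2 are past 1.5-fold on a few UMIs with intervals that include 1, in classes where 6.50% and 5.91% of features were higher by as much.

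A list of 16 other coactivators and corepressors, 15 of them in the tables, had a median log2 ratio below 0 in 10 of 20 classes and above 0 in the other 10. In alveolar fibroblast-like cells 9 were measured and 3 were higher, Ep300 (ratio 2.59, 1.17 to 5.67), Crebbp (1.63, 1.22 to 2.18) and Smarca4 (1.62, 0.932 to 2.76), and 1 was lower, Tgfb1i1 (0.637, 0.411 to 0.956), where 21.5% and 13.2% of all features were. Of these 9, 1 was measured through the HIR library alone, which favours a higher value. With a mean of 20 CPM over both libraries as the limit, 2 of 8 were higher and 1 lower. Ep300 and Crebbp are histone acetyltransferases and Smarca4 is a chromatin remodelling ATPase. In alveolar type 1 epithelium-like cells 4 of 8 were higher (16.5% of all features were) and 0 lower, among them Carm1 (2.16, 0.858 to 5.87) and Tgfb1i1 (1.92, 1.20 to 3.12). There too 1 of the 8 was measured through the HIR library alone, and the mean limit left 4 of 8 higher. In adventitial fibroblast-like cells Crebbp was higher (59.3 and 99.0 CPM; 1.67, 1.31 to 2.13) and Med14 and Tgfb1i1 were lower (0.565 and 0.650), of 8 measured, where 13.4% and 11.9% of all features were higher and lower. Of these 8, 2 were measured through the sham library alone, which favours a lower value. With the mean limit 1 of 7 was higher and 1 lower.

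Receptor target genes were tallied beside the receptor. The list holds 14 genes that textbooks give as induced by glucocorticoids, and it was chosen with results of these libraries known, so its direction is not independent evidence. Its median log2 ratio was 1.32 in alveolar fibroblast-like cells, with 11 of 11 measured members higher by 1.5-fold (21.5% of all features were), and 1.33 in adventitial fibroblast-like cells, with 11 of 13 (13.4%). Of these, 4 and 5 were measured through the HIR library alone, which favours a higher value, so the counts support nothing by themselves. All 14 members with a UMI were above 1 in both classes, with medians of 1.17 and 1.28, and the median was 0.94 in Wnt11 and Lum stromal cells. Errfi1, a feedback inhibitor of the EGF receptor, was at 4.91 and 52.8 CPM in alveolar fibroblast-like cells (8 and 29 UMIs; ratio 10.7, 4.79 to 27.2). Angptl4, an inhibitor of lipoprotein lipase, was in adventitial fibroblast-like cells at 13.1 CPM in sham and 122 CPM in HIR (31 and 167 UMIs; ratio 9.32, 6.32 to 14.1). Both genes were under 20 CPM in sham and so were measured through the HIR library alone, which favours a high ratio. Over measured members the list median was 0.95 in Wnt11 and Lum stromal and in smooth muscle or myofibroblast-like cells, 0.13 in type 2 epithelium-like, 0.11 in T-like and -0.04 in neutrophil-like cells. Across the 20 classes this median went with the sham level of Nr3c1 (Pearson's r = 0.751, Spearman's rho = 0.786) and less with that of Hsd11b1 (r = 0.471, rho = 0.435). With all members that had a UMI the coefficients were 0.843 and 0.794 for Nr3c1, and 0.489 and 0.417 for Hsd11b1. The points share both libraries and differ in depth and in the members measured, so this is a description without a test.

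**Figure D5:**
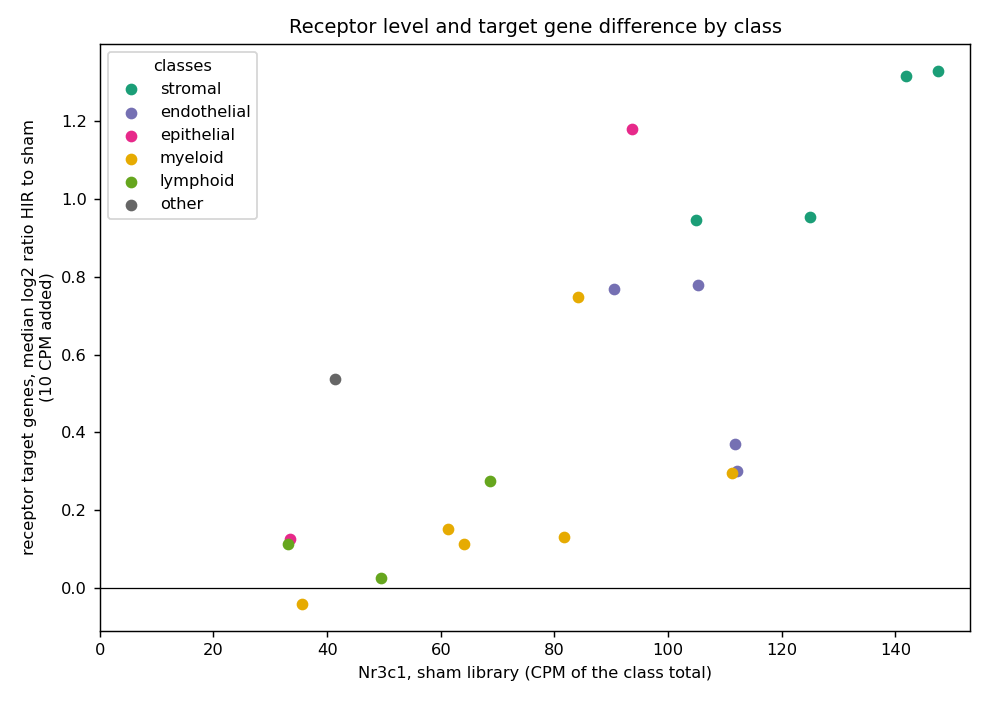
Median log2 HIR to sham ratio of the receptor target list (vertical axis, 10 CPM added) against the sham level of Nr3c1 (horizontal axis, CPM) in 20 classes, coloured by compartment, each point 1 class. Alveolar and adventitial fibroblast-like cells are at the upper right (medians 1.32 and 1.33), and neutrophil-like, T-like and type 2 epithelium-like cells at the lower left.

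Genes of sodium transport that respond to mineralocorticoids were examined in view of the scarce Nr3c2. In alveolar type 1 epithelium-like cells 7 of the 9 listed genes were measured and 2 were higher by 1.5-fold (16.5% of all features were), with a median log2 ratio of 0.46 against 0.05 over all features. Atp1b1, the beta subunit of the sodium pump, was at 309 CPM (188 UMIs) in sham and 975 CPM (516 UMIs) in HIR, a ratio of 3.16 (2.67 to 3.75). Nedd4l, the ubiquitin ligase that removes the epithelial sodium channel, was at 90.4 and 142 CPM (1.57, 1.09 to 2.26). The channel subunits Scnn1a (983 and 1359 CPM) and Scnn1g (521 and 722 CPM) had ratios of 1.38 (1.24 to 1.54) and 1.39 (1.19 to 1.61). The other channel subunit, Scnn1b, went the opposite way, with a ratio of 0.789 in the 1 class where it was measured. Of the 7 genes measured in type 1 epithelium-like cells, 1 had a ratio below 1. Nr3c2 itself gave 1 UMI in sham and 0 in HIR in that class. Several of these genes, Sgk1 and the channel subunits among them, are known to respond to the glucocorticoid receptor as well. The part of either receptor in these differences was not tested.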

How the data were processed

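UMI counts per gene and barcode were analysed as deposited, in 1 sham and 1 HIR library. Per the submitters' processing notes, the authors used Cell Ranger 6.0, STAR, Seurat 4.0 and mm10, whereas per the file headers the count matrices were written by cellranger 5.0.0. Whether counting used strand is not given in the sources used here. Barcodes needed 200 genes or more, with no more than 20% of UMIs from mitochondrial genes. The barcodes with the highest Scrublet scores (scanpy 1.11.5), 0.8% per 1000 barcodes or 919 in sham and 722 in HIR, were left out as doublets. Counts scaled to 10000 per cell were log-transformed, and 2000 variable genes without the 7 members, 30 principal components and 15 neighbours were used for Leiden clusters at resolution 1 (igraph 0.11.9). Clusters were named from marker lists, with at least 3 markers over 2-fold and a mean log2 fold of at least 0.8, by rules set after the data were seen. Cells of a class had to hold at least 2 of its markers. Club-like, cycling-like, erythroid-like and lymphatic endothelium-like cells and cluster 27 were described in no comparison, as at least 1 library held fewer than 50 of their cells.

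The members, the pathway lists (receptor chaperone complex, coactivators and corepressors, corticosteroid supply and disposal, mineralocorticoid responsive sodium transport, receptor target genes) and the marker lists were chosen with earlier results of these data known. List members needed 20 CPM in either library and 20 UMIs over both, and medians were taken of log2 ratios after 10 CPM was added. All 7 members were to be described in each class, up to 4 genes with the largest ratios named per list and class, and 5 genes per likeness ranking. The percentages of features past 1.5-fold were taken over all features measured by the same rule. Free RNA was estimated in each class from markers of other compartments. Ratios and intervals were tested on simulated data. Upstream windows came from RefSeq for mouse (GRCm38.p6). Nr3c1 and Hsd11b2 sequences are not shown.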

Additional observations from a re-analysis of the deposited data

How the results depend on the processing

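Ratios of the 7 members, Fkbp5 and H6pd in their classes (96 in all) were recomputed under 14 alternatives, 2 of them chosen after seeing the data (without the barcodes both libraries share, and stromal classes without cells that hold 2 alveolar fibroblast markers). Of 1201 values, 1183 kept their direction and side of 1.5-fold or stayed within counting error, 12 moved and 6 reversed. For Hsd11b1 in alveolar type 1 epithelium-like cells the ratio reversed to 2.38 without a filter on cells, 2.03 at resolution 2 and 1.71 with each cell assigned alone; in venous or large vessel endothelium-like cells it reversed to 0.738 with each cell assigned alone. Fkbp4 in neutrophil-like cells became 1.26 with each cell assigned alone, and Ncoa2 in T-like cells 0.3996 as a mean of per-cell CPM. Hsd11b1 in Wnt11 and Lum stromal cells moved to 0.293 with the stricter filter and 0.372 at resolution 2, and in alveolar fibroblast-like cells to 0.849 with size factors. Classes with Nr3c1 lower by 1.5-fold went from 2 to 1 with the stricter filter, with each cell assigned alone and with size factors, and classes below 1 from 14 of 20 to 8 of 17 with each cell assigned alone. A mean of 20 CPM over both libraries for list members, also chosen after seeing the data, moved no list's count of classes by over 1.5 times. With all list members that had a UMI, 4 classes in place of 9 had a median below 0 for sodium transport and 3 in place of 1 for receptor targets. The causes were not tested. Shares of cells rise with the depth to which cells are thinned. No paired analysis was possible because there is 1 library per group. Depth limits Nr3c2, Ncoa2 and, outside fibroblasts, Hsd11b2.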
